A study of Mus musculus with 8 samples.

Results

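The cell division genes examined here are 35 genes of DNA replication and mitosis, matched by Ensembl gene identifier to the 55417 gene rows of each count table. They comprise 7 genes of origin licensing and the replication clamp, 3 of deoxynucleotide supply, 6 cyclins and their kinase, 5 mitotic kinases and chromosomal passenger proteins, 4 genes of the spindle checkpoint and anaphase ubiquitination, 7 spindle motors and microtubule binders, and 3 genes of chromosome structure and proliferation. Of the 35, 33 had at least 1 count in some library, 28 had 10 or more counts in all, and 12 passed the low-count filter for the test of region.

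The series holds RNA from flow-sorted astrocytes of 4 wild-type mice (2 male, 2 female) at postnatal day 29, with no treatment named in the labels. A cortical and a subcortical library came from each mouse, and the regions were compared over 4 libraries each. The libraries are 3′ tag libraries, in which priming at the poly(A) tail places counts near the transcript end. The sort gate and the structures taken as subcortical tissue were not given in the sources used here.

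Cells that enter the cycle license replication origins with the MCM helicase, raise their deoxynucleotide supply, and copy DNA under cyclin E and cyclin A kinase activity. They then build a spindle under cyclin B and Cdk1, with the Aurora and Polo kinases. The replication genes are transcribed from the G1/S boundary under E2F factors. The mitotic genes peak in G2 and M through the cell cycle genes homology region (CHR), a promoter element bound by the MuvB complexes. Rodent astrocytes divide locally in the first postnatal weeks and rarely thereafter in the healthy brain.

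The libraries held 2484717 to 4060891 gene counts, and the cortical effective totals (raw totals times their trimmed-mean, or TMM, factors) were together 1.49 times the subcortical ones. A single count was worth 0.234 to 0.261 CPM (counts per 1 M of the effective total) in cortical and 0.279 to 0.481 CPM in subcortical libraries. All 12 astrocyte markers had counts in every library, with summed levels of 30444 to 33264 CPM in cortical and 25897 to 28057 CPM in subcortical libraries. Across all 11781 genes tested for region with edgeR, 802 (6.81%) passed an adjusted p of 0.05, 403 of them (3.42%) higher and 399 (3.39%) lower in cortical libraries.

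Cell division transcripts were present at low levels in both regions and were summed to a higher level in the cortical library of 4 of 4 mice. The summed member level was 114, 110, 132.7 and 105.3 CPM in cortical libraries 1 to 4 and 98.6, 102.8, 70.2 and 74.7 CPM in the subcortical libraries of the same mice. The sums did not overlap, at 115.5 ± 12 CPM (SD, n = 4) against 86.6 ± 16.5 CPM (SD, n = 4). As a share of all gene counts this was 0.0124 ± 0.0015% against 0.0079 ± 0.0009%. The separation was narrow, with cortical 4 at 105.3 CPM and subcortical 2 at 102.8 CPM. Without Top2a the sums were 107.7, 95.4, 115.9 and 102.1 CPM in cortical libraries and 96.1, 102.8, 70.2 and 73.8 CPM in subcortical ones. These overlapped and were higher in the cortical library of 3 mice. No other member was left out of this sum, so the separation cannot be credited to Top2a alone. In bulk libraries, fewer cells of a type and less RNA per cell cannot be told apart.

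More members were found in cortical libraries. Of the 35, 27, 25, 30 and 22 had a count in cortical libraries 1 to 4, against 22, 16, 16 and 16 in the subcortical ones. The means were 26.0 ± 3.37 and 17.5 ± 3.0 (SD, n = 4 each), and with every library thinned to the smallest total of 2484717 counts they were 25.3 ± 2.98 and 17.2 ± 2.97. Cortical 4 and subcortical 1 held the same number, 22. Of 140 values per region, 36 (25.7%) were 0 in cortical and 70 (50%) in subcortical libraries. Thinning, which equalises raw totals and covers counting error only, moved each mean by less than its SD. Over all genes, 14713 to 15341 had a count in cortical libraries and 14687 to 15148 in subcortical ones, without thinning. Those genes include well-counted ones, and numbers for genes with as few counts as the members were not computed.

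**Figure D1:**
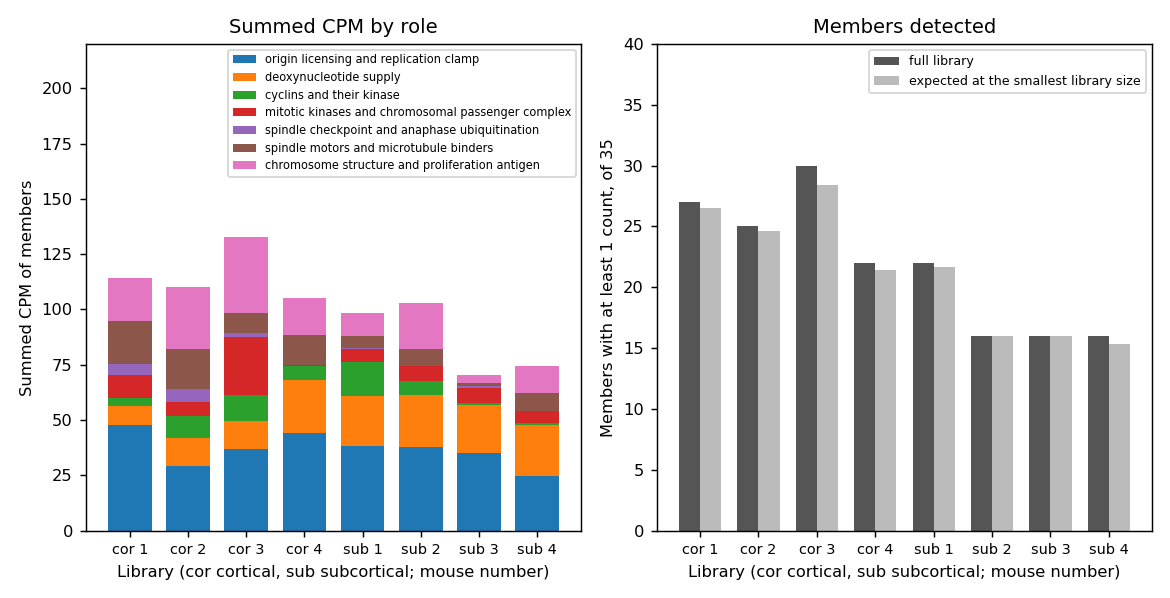
Left, summed level in CPM of the cell division genes in each of the 8 libraries, with stacked bars coloured by role; right, number of the 35 genes with at least 1 count in the full library (dark) and expected at the smallest library size (light). Cortical sums lie between 105.3 and 132.7 CPM and subcortical sums between 70.2 and 102.8 CPM, and cortical 4 and subcortical 1 share the number 22.

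Counts in 1 region only were found for 8 members, all cortical. Of the 28 members with 10 or more counts, 6 (21.4%) were at 0 in all 4 subcortical libraries, namely Ccnb1, Cdk1, Cdc20, Kif20a, Cenpf and Mki67, against 3.09% of the 16374 genes with as many counts. None was at 0 in all 4 cortical libraries, against 1.75% of those genes. The 6 had few counts, such as 14 for Ccnb1, whereas the 16374 genes include well-counted ones. A share for genes with as few counts was not computed. The 6 also reached 10 counts through cortical libraries alone, whose effective totals were together 1.49 times the subcortical ones. Ube2c and Kif11, with 9 and 4 counts, were the others of the 8. These 8 are mitotic genes by role, with none among the replication or nucleotide members. Aurkb, the catalytic kinase of the chromosomal passenger complex, and Bub1, a spindle checkpoint kinase, had no count anywhere, which at a floor of 3 counts over the 4 libraries of a region allows a mean level of 0.184 CPM in cortical libraries and 0.274 CPM in subcortical ones. This floor covers counting error only.

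**Figure D2:**
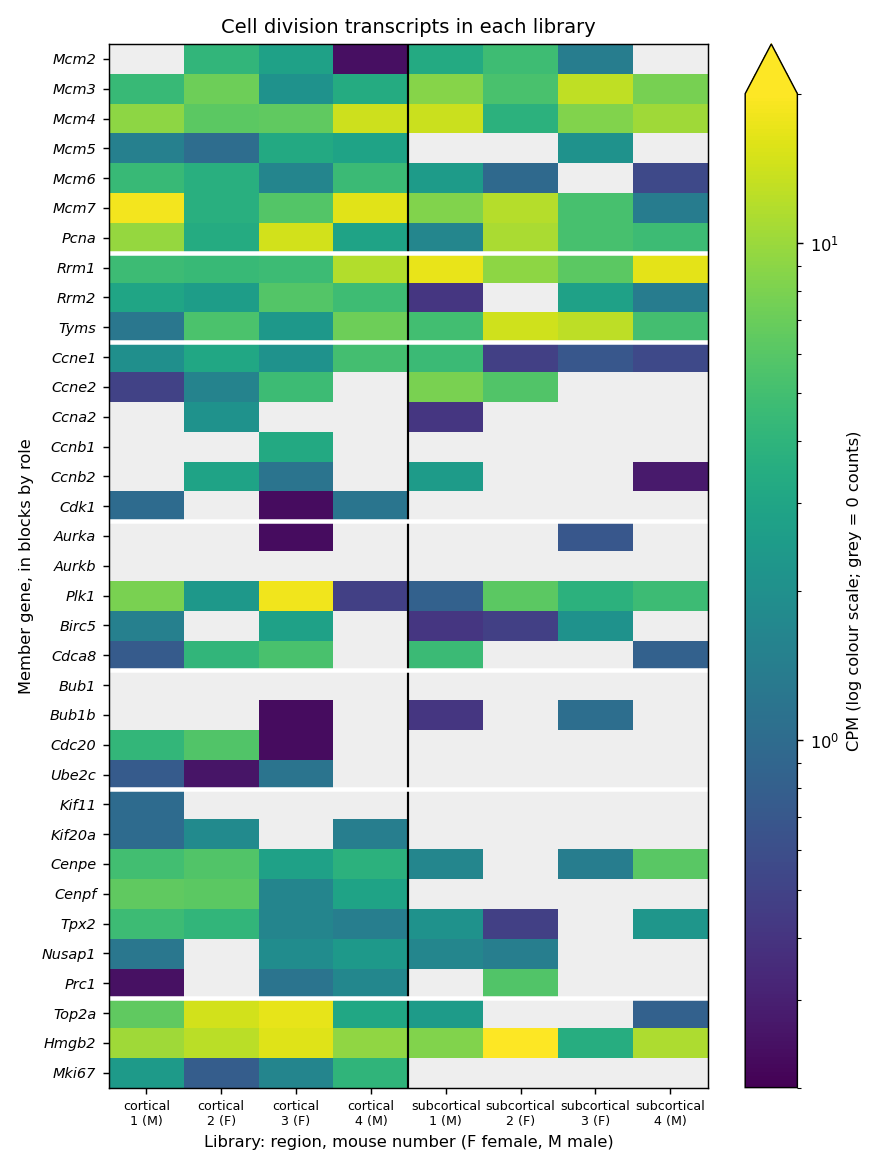
Level of each of the 35 cell division genes (rows, in blocks by role) in each of the 8 libraries (columns), in CPM on a log colour scale, with grey for 0 counts. The mitotic blocks hold 8 genes that are grey in all 4 subcortical columns and coloured in some cortical column, and no gene has the opposite pattern.

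Groups that did not overlap, with all 4 cortical libraries above all 4 subcortical ones, were found for 3 of the 28 members with 10 or more counts (10.7%), Top2a, Cenpf and Mki67, against 5.22% of all genes with as many counts. The opposite order was found for 0 of the 28, against 4.6%. The mean level was higher in cortical libraries for 21 of the 28, against 50.3% of those genes. Top2a, Cenpf and Mki67 would not have reached 10 counts on their subcortical libraries alone. The same holds for the other members at 0 in all subcortical libraries, which are all among the 21. The shares over all genes include well-counted genes, and shares for genes with as few counts were not computed. Within mice, 6 members were higher in the cortical library of all 4: Mcm5, Mcm6, Rrm2, Cenpf, Top2a and Mki67. For Rrm1 the subcortical library held the higher level in every mouse. The shares of all genes with these within-mouse patterns were not computed, so the count of 6 has no background to be set against. Leaving out single libraries gave 3 to 5 of the 28 with all cortical libraries higher, with 5 on leaving out cortical 2 or 3 or subcortical 1 or 3. Those 3 genes were among them each time. The opposite order then appeared for 1 member, Mcm3 without cortical 2 or subcortical 2 and Rrm1 without cortical 4.

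Of the 12 members tested for region with edgeR's quasi-likelihood test, 1 passed, Top2a, beside 3.42% of all genes in its direction. With mouse as a block, which pairs the libraries, 0 passed (Top2a at an edgeR adjusted p of 0.0585, the only member at an unadjusted p under 0.05), while DESeq2 without the block called 1. Without the block it was also the only member at an unadjusted edgeR p under 0.05, against 8.85% of all genes higher and 8.53% lower. The fitted change was above 0 for 7 of the 12 and for 49.1% of all genes. The median fitted log2 change of these 12 was 0.30, beside -0.0099 over all genes tested. The other 23 members were too low for the filter, so the test covers the better counted members and not the list. Without the filter, 33 members had a value and 2 passed, Top2a and Cenpf, against 4.88% of 20449 genes, but Cenpf had counts in cortical libraries only.

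The minichromosome maintenance (MCM) proteins Mcm2 to Mcm7 form the hexameric helicase that is loaded on origins, and Pcna is the sliding clamp that holds DNA polymerase. Mcm3 was at 4.47, 7.30, 2.10 and 3.37 CPM in cortical libraries and 8.74, 5.29, 12.9 and 7.80 CPM in subcortical ones. Its cortical mean was the lower, 4.31 ± 2.22 against 8.69 ± 3.18 CPM (SD, n = 4), with 1 mouse in the other order. The fitted log2 change was -1.01 (SE 0.63, edgeR adjusted p = 0.471).

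Mcm4 was at 9.18, 6.26, 6.54 and 14.0 CPM in cortical libraries and 13.7, 3.84, 8.39 and 10.3 CPM in subcortical ones. The groups overlapped throughout and the fitted log2 change was -0.019 (SE 0.53, edgeR adjusted p = 0.993). Mcm7 was at 18.4, 3.65, 5.84 and 16.4 CPM in cortical libraries and 8.32, 12.01, 5.24 and 1.39 CPM in subcortical ones. Cortical 1 and 4, from the male mice, were the highest of the 8, and the groups overlapped (log2 change 0.74, SE 0.64, edgeR adjusted p = 0.635). The change was 1.46 without mouse 2 and 0.14 without mouse 4.

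Mcm5 and Mcm6, too low for the filter, were higher in cortical libraries of all 4 mice. Mcm6 was at 4.47, 3.65, 1.64 and 4.58 CPM against 2.5, 0.961, 0 and 0.557 CPM. Mcm5 was at 1.49, 1.04, 3.27 and 2.89 CPM, against 2.10 CPM in subcortical 3 and 0 in the other subcortical libraries. Subcortical 1 for Mcm6 and subcortical 3 for Mcm5 exceeded the lowest cortical library, so that the groups overlapped, and without the filter the edgeR adjusted p was 0.521 and 0.586. Helicase subunits of the same complex therefore had opposite orders of their means, with Mcm2 (1.80 ± 2.03 against 2.38 ± 2.11 CPM) also lower in cortical libraries and not past the edgeR test (adjusted p = 0.933).

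Pcna was at 9.68, 3.39, 14.7 and 2.89 CPM in cortical libraries and 1.66, 11.1, 5.24 and 4.74 CPM in subcortical ones. Its cortical levels were high in mice 1 and 3 and low in mice 2 and 4. The fitted log2 change was 0.45 (SE 0.70, edgeR adjusted p = 0.826), and 1.21 without mouse 2. Summed over the 7 licensing and clamp genes the level was 39.6 ± 8.10 CPM in cortical libraries and 34.1 ± 6.34 CPM in subcortical ones (SD, n = 4 each), and every one of the 7 was found in both regions.

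Deoxynucleotide supply was the role with the lower cortical level. Rrm1 and Rrm2 encode the large and small subunits of ribonucleotide reductase, which makes deoxynucleotides, and Tyms makes thymidylate. Rrm1 was at 4.71, 4.43, 4.67 and 11.8 CPM in cortical libraries and 17.1, 9.13, 6.29 and 16.4 CPM in subcortical ones, with the cortical library the lower one in all 4 mice. The groups overlapped through cortical 4, and the log2 change of -0.93 (SE 0.54) did not pass (edgeR adjusted p = 0.417).

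The small subunit had the opposite order. Rrm2 was at 2.98, 2.61, 5.84 and 4.82 CPM in cortical libraries and 0.416, 0, 2.80 and 1.39 CPM in subcortical ones. It was higher in the cortical library of all 4 mice, but subcortical 3 exceeded cortical 2 (log2 change 1.73, SE 0.97, edgeR adjusted p = 0.398), and without subcortical 3 the change was 2.56. Tyms was at 1.24, 5.47, 2.34 and 7.23 CPM in cortical libraries and 4.99, 14.4, 12.6 and 5.01 CPM in subcortical ones (log2 change -1.17, SE 0.69, edgeR adjusted p = 0.429, and -1.80 without mouse 4). The summed level of the 3 genes was 14.5 ± 6.46 CPM in cortical libraries and 22.6 ± 0.784 CPM in subcortical ones, and the cortical range of 8.93 to 23.8 CPM enclosed the subcortical one.

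Cyclin E (Ccne1, Ccne2) drives entry into S phase, cyclin A2 (Ccna2) acts in S and G2, and the B cyclins (Ccnb1, Ccnb2) activate Cdk1 for mitosis. Ccne2 was at 0.496, 1.56, 4.67 and 0 CPM in cortical libraries and 7.91, 5.77, 0 and 0 CPM in subcortical ones. It was found in 3 and 2 libraries and was the only cyclin with the lower cortical mean. Ccne1, its paralog, was found in all 8 libraries, at 3.07 ± 1.42 against 1.58 ± 2.00 CPM (SD, n = 4).

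The mitotic cyclins and their kinase were thinly counted. Ccnb1 had 14 counts, all in cortical 3, and Cdk1 had 10 counts over 3 cortical libraries. The same floor of 3 counts over the 4 subcortical libraries bounds the group and not a single library. Cortical levels were 3.13 times that floor for Ccnb1 and 2.24 times for Cdk1. Such folds leave out the counting error of the cortical counts and are not lower limits. Ccnb2 was found in 2 libraries of each region with 16 and 7 counts, and Ccna2 had 8 counts in cortical 2 and 1 in subcortical 1 (ratio 5.37, exact 95% interval 0.72 to 238). None of the 6 passed the low-count filter, and without it none passed the edgeR test.

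Plk1, the Polo kinase of mitotic entry and spindle assembly, was at 7.94, 2.35, 18 and 0.482 CPM in cortical libraries and 0.832, 6.25, 3.84 and 4.74 CPM in subcortical ones. The lowest and the highest of the 8 values were both cortical, and the fitted log2 change was 0.87 (SE 0.86, edgeR adjusted p = 0.688). Without cortical 3 it was -0.12. Birc5 (survivin) and Cdca8 (borealin), which target the passenger complex to centromeres, had 18 and 42 cortical and 8 and 14 subcortical counts. Aurka, the spindle pole kinase, had 1 and 2. Summed over the 5 kinase and passenger genes the cortical level ranged from 0.482 to 26.4 CPM and the subcortical level from 5.57 to 6.73 CPM.

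Of the checkpoint and ubiquitination members only Bub1b had counts in subcortical libraries. Cdc20, which activates the anaphase-promoting complex, was at 4.22, 5.74, 0.234 and 0 CPM in cortical libraries and at 0 in all 4 subcortical ones. Its 40 cortical counts put it at 8.95 times the floor of 3 counts over the subcortical libraries. All but 1 of these counts were in cortical 1 and 2. Without the low-count filter Cdc20 had an edgeR adjusted p of 0.0978. Ube2c, the ubiquitin-conjugating enzyme of the same complex, had 9 counts over 3 cortical libraries, at 2.01 times that floor. The checkpoint protein Bub1b had 1 cortical and 4 subcortical counts.

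Spindle motors and microtubule binders were higher in every cortical library than in any subcortical one when summed. The summed level of the 7 genes was 15.1 ± 4.70 CPM in cortical libraries, with a range of 9.11 to 19.6, and 5.71 ± 3.14 CPM in subcortical libraries, with a range of 1.4 to 8.36 (SD, n = 4 each). Without Cenpf the ranges of 7.48 to 13.1 and 1.4 to 8.36 CPM overlapped, with the cortical library the higher in all 4 mice. Cenpf, a large kinetochore protein that accumulates in G2 and M, was at 6.45, 6.26, 1.64 and 2.89 CPM in cortical libraries and at 0 in all 4 subcortical ones. With 69 counts against 0 it was at 15.4 times the floor of 3 counts over the subcortical libraries, and its cortical mean was 4.31 ± 2.42 CPM. It fell below the filter of the main test. Without that filter its edgeR adjusted p was 0.0107, and it entered that fit through cortical libraries alone, where it is high.

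Cenpe, the kinetochore motor that moves chromosomes to the metaphase plate, was at 4.96, 5.74, 2.80 and 3.85 CPM in cortical libraries and 1.66, 0, 1.4 and 6.13 CPM in subcortical ones. It was lower in the subcortical library of 3 mice and highest of all in subcortical 4 (log2 change 0.85, SE 0.92, edgeR adjusted p = 0.724), and without that library the change was 2.01. Tpx2, which activates Aurora A on spindles, had 48 and 14 counts, Nusap1, which stabilises spindle microtubules, 23 and 7, and the midzone protein Prc1 13 and 12, the last with all 12 subcortical counts in subcortical 2. Kif20a, a cytokinesis motor, had 17 cortical counts in 3 libraries, at 3.80 times the floor of 3 counts over the subcortical libraries. Kif11, which pushes spindle poles apart, had 4 counts in cortical 1.

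Top2a, the topoisomerase that untangles replicated chromosomes and is made in S, G2 and M, was the member called higher in cortical libraries in the main test. It was at 6.45, 14.6, 16.8 and 3.13 CPM in cortical libraries and 2.5, 0, 0 and 0.836 CPM in subcortical ones, from 26, 56, 72 and 13 counts against 6, 0, 0 and 3. The groups did not overlap, and both subcortical libraries at 0 came from the female mice, whose cortical libraries were the highest. The means were 10.3 ± 6.51 and 0.833 ± 1.18 CPM (SD, n = 4), a fitted log2 change of 3.57 (SE 0.95, edgeR adjusted p = 0.0219). Its cortical libraries alone carried it through the low-count filter.

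The Top2a call depended on single libraries. It was lost on leaving out cortical 2 (adjusted p = 0.0851), cortical 3 (0.129), subcortical 2 (0.0526), subcortical 3 (0.0535) or subcortical 4 (0.0507), on leaving out mouse 2 (0.155) or mouse 3 (0.214), and with mouse as a block (0.0585), all by edgeR. The fitted log2 change stayed between 2.81 (without mouse 3) and 4.99 (without mouse 1) in the 18 other settings that tested it, and was 4.82 without subcortical 1. DESeq2 gave an adjusted p of 0.00115 and limma-voom one of 0.154. Cenpf was called by edgeR on leaving out cortical 3, any 1 of the 4 subcortical libraries or mouse 3. It was not called in the main test or on leaving out cortical 1, 2 or 4 or mouse 1, 2 or 4.

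Mki67 encodes Ki-67, the proliferation antigen that coats mitotic chromosomes. It was at 2.48, 0.782, 1.64 and 4.09 CPM in cortical libraries and at 0 in all 4 subcortical ones. From 37 counts against 0, this was 8.27 times the floor of 3 counts over the subcortical libraries. Every cortical library had at least 3 counts, and the edgeR adjusted p without the filter was 0.132. Hmgb2, a DNA-bending chromatin protein that is high in cycling cells, was at 10.4, 12.5, 15.9 and 9.39 CPM in cortical libraries and 8.32, 20.7, 3.49 and 11.4 CPM in subcortical ones. Its groups overlapped, with subcortical 2 the highest and subcortical 3 the lowest of the 8 (log2 change 0.15, SE 0.49, edgeR adjusted p = 0.932).

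**Figure D3:**
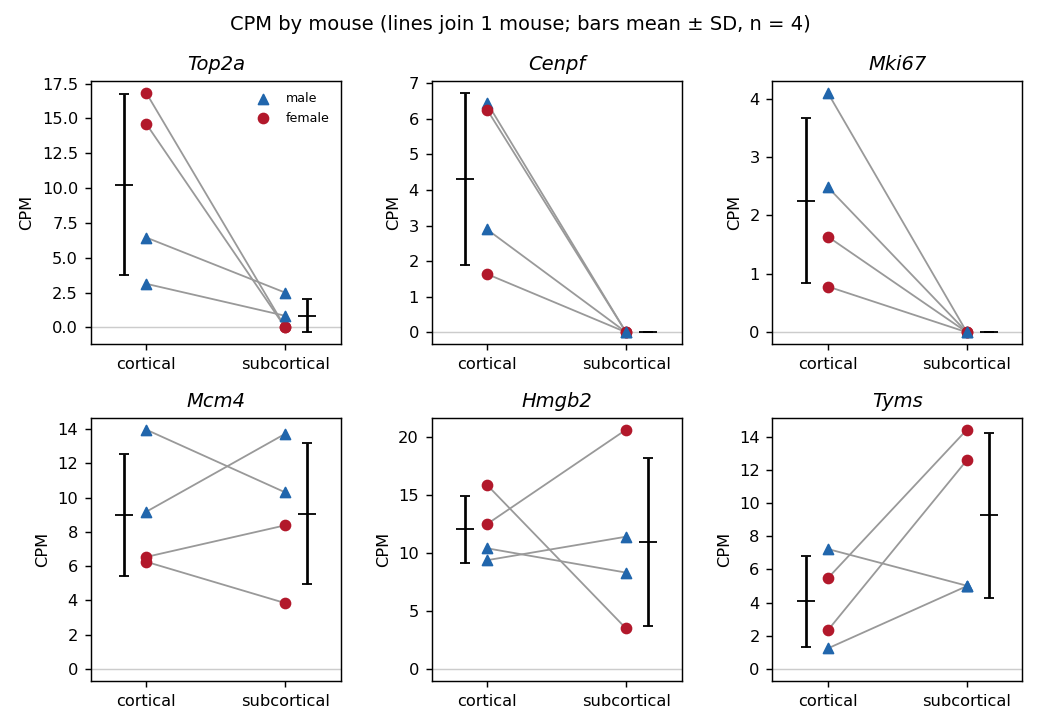
Level in CPM of 6 cell division genes, with a grey line joining the cortical and the subcortical library of 1 mouse, red circles for female and blue triangles for male mice, and black bars for mean ± SD (n = 4). All lines of Top2a, Cenpf and Mki67 fall from cortical to subcortical, while those of Mcm4, Hmgb2 and Tyms run in both directions.

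**Figure D4:**
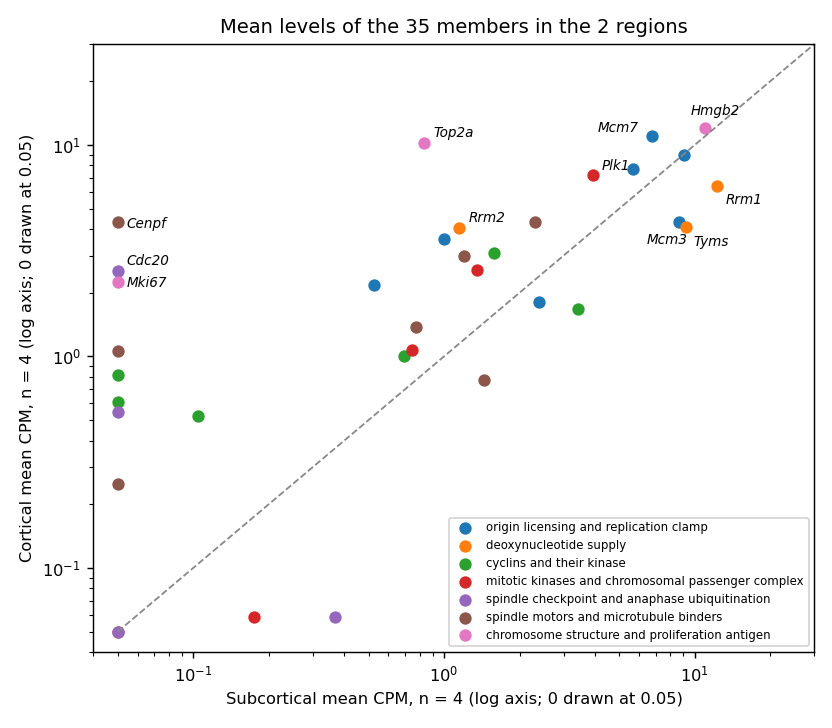
Mean level in CPM of each cell division gene in cortical (vertical) against subcortical libraries (horizontal), n = 4 each, on log axes with 0 drawn at 0.05 and a dashed line of equal levels; colour marks the role. Top2a, Cenpf, Cdc20 and Mki67 lie above the line, with the last 3 at 0 in subcortical libraries, and Rrm1, Tyms and Mcm3 lie below it.

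The promoters of Top2a, Cenpf and Mki67, the 3 members whose libraries did not overlap, are shown with that of Mcm6, a replication member with counts in both regions, to set the mitotic type of promoter beside the replication type. Each is the RefSeq window (GRCm38.p6) from 250 bases before to 50 bases after the start of the gene, 5′ to 3′ on the gene's strand. Capitals mark the CHR word TTTGAA, the CCAAT box word and the E2F words TTTCCCGC, TTTCGCGC, TTTGCCGC and TTTGGCGC, on either strand. The windows are chr11:99024140-99024439 for Top2a, chr1:189688037-189688336 for Cenpf, chr7:135716330-135716629 for Mki67 and chr1:128359656-128359955 for Mcm6, all on the minus strand.
Top2a: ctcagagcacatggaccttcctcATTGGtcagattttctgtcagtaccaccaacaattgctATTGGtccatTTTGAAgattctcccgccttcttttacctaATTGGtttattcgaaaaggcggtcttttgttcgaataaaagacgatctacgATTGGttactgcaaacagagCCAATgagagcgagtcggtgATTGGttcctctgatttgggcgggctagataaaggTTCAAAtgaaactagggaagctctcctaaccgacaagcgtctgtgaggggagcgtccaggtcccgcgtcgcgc
Cenpf: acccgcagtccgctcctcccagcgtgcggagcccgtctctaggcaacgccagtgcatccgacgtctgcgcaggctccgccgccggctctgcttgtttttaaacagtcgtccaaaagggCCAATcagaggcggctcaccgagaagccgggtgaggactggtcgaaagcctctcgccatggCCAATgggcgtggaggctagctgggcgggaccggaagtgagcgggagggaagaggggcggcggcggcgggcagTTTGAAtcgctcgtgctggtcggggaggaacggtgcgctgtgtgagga
Mki67: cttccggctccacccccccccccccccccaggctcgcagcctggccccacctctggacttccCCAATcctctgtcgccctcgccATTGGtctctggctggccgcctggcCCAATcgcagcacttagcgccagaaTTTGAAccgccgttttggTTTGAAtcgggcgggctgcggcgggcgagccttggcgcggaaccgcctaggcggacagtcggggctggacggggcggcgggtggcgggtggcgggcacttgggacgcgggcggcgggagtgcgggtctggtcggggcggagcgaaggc
Mcm6: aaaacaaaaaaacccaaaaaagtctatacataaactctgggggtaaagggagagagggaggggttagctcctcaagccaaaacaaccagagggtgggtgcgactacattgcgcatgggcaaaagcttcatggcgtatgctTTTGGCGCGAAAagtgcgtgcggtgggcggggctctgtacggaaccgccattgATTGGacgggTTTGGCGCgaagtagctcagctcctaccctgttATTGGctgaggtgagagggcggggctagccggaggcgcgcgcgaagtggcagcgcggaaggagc
Top2a held 2 CHR words and 6 CCAAT words, Cenpf 1 and 2, and Mki67 2 and 3, with no E2F word in these 3 windows. Mcm6 held 3 E2F words and 2 CCAAT words, and its first 2 E2F words overlap on opposite strands.

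Windows were at hand for 29 of the 35 members. The CHR word stood in 15 of the 29 (51.7%), against 17.9% of 32851 windows of that length. A CCAAT word stood in 25 (86.2%) against 37.4%, and an E2F word in 5 (17.2%) against 2.26%. The CHR and CCAAT words stood together in 15 members (51.7%) against 6.95% of windows. A member counted if any of its windows held the word, whereas the 32851 windows were counted singly. Mcm7 and Prc1 had a second window, and Mcm7 held E2F words in only 1 of its windows. By role, 1 of 9 replication and nucleotide members held the CHR word and 4 held an E2F word, while of the 20 others 14 held the CHR word and 1 an E2F word. Of the 5 members at 0 in all subcortical libraries with 10 or more counts and a window, 4 held the CHR word. A word match describes these letters and is not a measured binding site.

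The spread within regions exceeded counting error for the members. Over the 4 cortical libraries the chi-square per degree of freedom had a median of 5.74 for the 28 members with 10 or more counts in that region, and over the 4 subcortical libraries a median of 6.38 for 17 members. A value of 1 would be counting error alone, and all of these members were above it. The same medians over all genes were 8.16 and 5.75. The highest cortical values were those of Plk1 (35.2) and Mcm7 (19.8).

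Male and female mice were compared on counts summed over each mouse's 2 libraries, with 2 mice a sex. Of 20 members tested, 0 passed edgeR's or DESeq2's test of sex, 1 had an unadjusted edgeR p under 0.05, and of 13402 genes 0.0373% passed and 3.73% had such an unadjusted p. That member was Top2a, with a log2 change of 1.48 female minus male (SE 0.65, edgeR adjusted p = 0.999). The region difference was also compared between sexes, and 0 of 21 members passed by edgeR or DESeq2, as did 0% of 13334 genes by edgeR. Neither of these fits had a term for mouse, so their p-values leave out the pairing of the libraries, with 2 mice a sex. Unadjusted edgeR p-values were under 0.05 for 3 members, Top2a (0.00511), Cdca8 (0.0164) and Mcm7 (0.0358), each with an adjusted p of 1.0, beside 3.76% of all genes. Top2a had no subcortical count in either female, so its fitted change in females is no measure of size.

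Genes of the same pathways outside the 35 gave few calls. Of 24 further replication and nucleotide genes (such as Cdc6, Gins2, Fen1 and Uhrf1), 22 had a count, 10 were tested and 0 passed by edgeR or DESeq2, with 1 at an unadjusted p under 0.05. That gene was Dut, which removes dUTP, at 18.4 ± 4.61 against 9.11 ± 3.11 CPM without overlap (log2 change 1.01, edgeR adjusted p = 0.177, and 0.132 by DESeq2). Orc6 of the origin recognition complex, at 8.63 ± 1.60 against 12.6 ± 4.90 CPM, and the clamp loader subunit Rfc4 did not pass. The median log2 change was -0.16.

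Of 52 further mitosis genes (such as Foxm1, Ndc80, Kif23 and Aspm), 46 had a count and 16 were tested. Only Cit passed, and it fell, at 57.8 ± 10.1 against 138 ± 20.02 CPM (log2 change -1.26, SE 0.20, edgeR adjusted p = 0.000158). Cit encodes citron kinase, a cytokinesis protein, and a shorter neuronal product of the same gene, which these counts do not separate. In this list 10 genes were at 0 in all subcortical libraries only and 1 in all cortical libraries only, counting genes with any count. The same share over all genes was not computed, and the cortical effective totals were together 1.49 times the subcortical ones. Several of the 10 had counts in 1 library alone, such as Ncaph (1), Sgo1 (2), Kif4 (9) and Mybl2 (12). The next by p, Ncapd2 (30.3 ± 7.79 against 19.6 ± 7.08 CPM), Cdc25b and Pttg1, did not pass, and the median was -0.16.

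The G1 genes had more calls, with 3 of 12 tested higher in cortical libraries and 0 lower, beside 3.42% of all genes. Ccnd2, a D-type cyclin that starts G1 progression, was at 365 ± 51.1 against 75.9 ± 9.76 CPM (log2 change 2.27, SE 0.18, edgeR adjusted p = 1.2e-08). Ccnd1 was at 30.6 ± 10.2 against 9.05 ± 6.44 CPM (log2 change 1.72, SE 0.44, edgeR adjusted p = 0.0162) and lost its call without cortical 3 (0.0994) or subcortical 2 (0.0533). Rb1, which restrains E2F factors, was at 53.4 ± 10.7 against 27.9 ± 5.54 CPM (log2 change 0.93, SE 0.25, edgeR adjusted p = 0.0254) and lost its call without cortical 1 (0.114), cortical 3 (0.0593) or subcortical 2 (0.0821). E2f3, the next by p, had an adjusted p of 0.379 by edgeR, and the list's median was 0.14.

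Of 7 inhibitors of cyclin-dependent kinases, 4 were tested and 1 passed, Cdkn1a (p21), which fell. It was at 0.496, 8.34, 8.41 and 25.05 CPM in cortical libraries and 42.4, 34.1, 30.4 and 51.3 CPM in subcortical ones, without overlap (log2 change -1.90, SE 0.53, edgeR adjusted p = 0.0298). The call was lost by DESeq2 (0.191) and on leaving out cortical 2 (0.0834), cortical 3 (0.0998), subcortical 1 (0.0756) or subcortical 4 (0.0901), and the change was -2.78 without cortical 4. Cdkn2c (5.12 ± 2.46 against 0.786 ± 1.57 CPM), Cdkn1b and Cdkn2d did not pass, and the median was -0.094. Of 12 paralogs of the members with roles outside division, 6 were tested and 0 passed by edgeR or DESeq2, with 0 at an unadjusted p under 0.05. Top2b, the topoisomerase of non-dividing cells, was at 139.8 ± 13.2 against 115.4 ± 39.1 CPM (edgeR adjusted p = 0.559), followed by p by Rrm2b, Plk2 and Hmgb3.

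Markers of other cells that could enter the sort differed between the regions. The 16 markers of neural progenitors and neuroblasts summed to 300 to 376 CPM in cortical and 244 to 410 CPM in subcortical libraries. Egfr alone held 112 to 148 CPM of the cortical sums and 108 to 203 CPM of the subcortical ones. Of the 16, 12 had the higher cortical mean and 3 the lower one, namely Egfr, Sox4 and Cd24a. Eomes, Dlx6os1, Sp8, Sp9 and Draxin were among those at 0 in all 4 subcortical libraries only. Their counts were few, at 2 to 8 a cortical library for Eomes. Those of Sp8 (5) and Sp9 (10) were all in cortical 1. Dlx6os1 had 30 in cortical 3 and 2 in cortical 2, and Draxin 3 and 11 in cortical 1 and 2. Dlx5 was at 0 in all 8.

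The 12 markers of oligodendrocyte precursors summed to 267 to 338 CPM in cortical and 418 to 694 CPM in subcortical libraries. Most of these sums was Olig1 (109 to 206 against 277 to 415 CPM) and Olig2 (78.4 to 104 against 94.2 to 226 CPM). No other marker of the list exceeded 28.3 CPM. Of the 12, 3 had the higher cortical mean, among them Matn4 (14.2 to 16.9 against 3.74 to 12.3 CPM). Pdgfra had counts in 1 library of each region and Gpr17 was at 0 in all 8. The 12 microglial markers summed to 185 to 389 against 128 to 226 CPM, with 11 higher in cortical libraries, and the 10 oligodendrocyte markers to 882 to 1419 against 2314 to 5846 CPM, with 0 higher. The 12 neuronal markers summed to 160 to 363 against 97.8 to 160 CPM, with 7 higher. The 10 endothelial and mural markers, with Cdh5 at 0 throughout, summed to 463 to 1009 against 324 to 1168 CPM, with 5 higher in cortical libraries.

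The 8 markers of ependyma and choroid plexus summed to 67.2 to 131 CPM in cortical libraries and 107 to 744 CPM in subcortical ones, with 1 higher in cortical libraries and Kl and Folr1 at 0 in all 4 of them. The highest sum was that of subcortical 3, in which Ttr, the transthyretin of choroid plexus, was at 611.9 CPM. The 8 blood markers, with Cd3e, S100a8 and S100a9 at 0 throughout, summed to 25.3 to 133 CPM in cortical libraries and 7.80 to 293 CPM in subcortical ones, with 1 higher in cortical libraries. The highest was subcortical 1, the subcortical library with counts for 22 of the 35 cell division genes. The part of the other cells' markers in the levels of the cell division genes was not tested.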

How the data were processed

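RNA of flow-sorted astrocytes was measured in 8 libraries, 4 cortical and 4 subcortical, from the same 4 mice. Libraries were of the QuantSeq 3′ FWD type, per the labels' protocols. Per the submitters' processing notes, the build was GRCm39 and the tools included STAR 2.6.0, HTSeq 0.9.0, FastQC 0.11.5 and DESeq2 1.35.0. Whether counting used molecular identifiers or strand was not given in the sources used here. A count is therefore not a molecule, and values of overlapping or antisense genes are open to error.

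Unnormalized counts per gene, as deposited by the authors in 1 table a library, were the input. The 5 closing HTSeq summary rows, with reads in no feature at 30.2 to 40.7% of the total, stayed out of library sizes and tests. A table of normalized values was not used. Symbols were matched for 52083 of 55417 rows, and the 35 members by Ensembl identifier. The members and lists were chosen with earlier results of these data known.

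CPM refers to TMM-scaled library sizes. Region was tested with edgeR 4.0.16 (R 4.3.3), filterByExpr (10 counts, 15 in total), quasi-likelihood tests and Benjamini-Hochberg adjustment at 0.05 over all genes, cortical minus subcortical. Standard errors are the fitted change divided by the root of the F statistic. Sex was tested on counts summed per mouse, and region by sex over the 8 libraries. A fold against a region without counts takes 3 counts over the 4 libraries as the floor. It leaves out the counting error of the other region's counts and is not a lower limit. Floors and exact 95% intervals cover counting error only. Alternatives used DESeq2 1.42.0, limma 3.58.1, other filters, raw totals, thinning and left-out libraries. The test was checked on simulated data.

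The regions pair by mouse, per the titles. Over genes, departures from the mean of the region had correlations of 0.0195 to 0.0592 within mice and of -0.0841 to 0.0471 between mice. Genes named with values in each library are members called by region or sex and the 12 with the highest mean CPM (76.3% of member counts), with other members given by role. Of each pathway list, the 4 genes with the smallest p and any called are named. Some genes so chosen are not reported here. Mcm5, Mcm6, Cenpf, Mki67 and Cdc20 were given by library after their values were seen. Promoter windows are from RefSeq (GRCm38.p6), and no coordinate was carried between builds.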

Additional observations from a re-analysis of the deposited data

Results flagged for a closer look

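In groups of 4 libraries, 66 groups of values were examined and 5 had a library far from the other three. Chance flags about 1 in 20 such groups. Cortical 4 stood above the other cortical libraries for Rrm1, at 11.8 CPM with the nearest at 4.71 CPM. All Ccnb1 counts were in cortical 3, at 3.27 CPM. Subcortical 1 had counts for 22 of the 35 cell division genes, while each of the other subcortical libraries had counts for 16. Outside the 35, Cit was lowest in subcortical 1, at 108.6 CPM with the nearest at 145.2 CPM, and Rb1 was lowest in subcortical 2, at 19.7 CPM with the nearest at 29.8 CPM.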

How the results depend on the processing

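The number of members called by region was 1 in the main test, 0 with limma-voom, 0 with a filter of 5 CPM in 4 libraries, 0 with mouse as a replicate block and 2 without the low-count filter, and 0 to 2 on leaving out a library or a mouse. Top2a did not pass the filter of 5 CPM in 4 libraries and was not tested there, so that 0 is not a failed test of Top2a. A threshold of 0.10, chosen after seeing the data, gave 1. The block changed no other member's call and called 885 genes in all, against 802. Over all genes, 474 were called for region without mouse 1, for sex 15 without the filter and 12 to 30 without a mouse (5 in the main test), and for region by sex 1 without the filter, with the block or without any mouse. The members called by sex or region by sex were 0 under every setting run. On leaving out a library, chosen for these counts after seeing the data, members not overlapping were 3 to 5 with cortical higher and 0 to 1 with cortical lower, and members with counts in cortical libraries only 7 to 10. The sum without Top2a, also chosen after seeing the data, was 105.3 against 85.8 CPM. Thinning to the smallest total gave 0.769 expected members with counts in subcortical libraries only, against 0. Directions reversed for Mcm4, whose log2 change was near 0, with the block (0.0303) and without cortical 2 (0.12), cortical 3 (0.11), subcortical 1 (0.24), subcortical 4 (0.05), mouse 1 (0.23) or mouse 3 (0.07). Without cortical 3 and without mouse 3 the log2 changes were -0.08 and -0.11 for Pcna, -0.12 and -0.13 for Plk1, and -0.02 and -0.31 for Hmgb2, which was -0.15 without subcortical 3. On leaving out a library or a mouse the changes reached 1.21 for Pcna, 1.455 for Plk1 and 0.63 for Hmgb2. These causes were not tested. The Rb1 call was also lost without any of the 4 mice (0.0504 to 0.164), that of Ccnd1 without mouse 1 (0.0587) or 2 (0.0716), and that of Cdkn1a without mouse 1, 2 or 3 (0.0737 to 0.121), all adjusted p by edgeR. At the floor of 3 counts over a region, a gene without counts there could still have a low mean level. That level is up to 0.184 CPM in cortical libraries and 0.274 CPM in subcortical ones, by counting error alone.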
